A study of Mus musculus with 14 samples.

Results

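The genes of the primitive endoderm basement membrane were examined in 14 single mouse blastocysts at embryonic day 4. The members are Lama1, Lamb1 and Lamc1 (the chains of laminin-111), Col4a1 and Col4a2 (the chains of collagen IV), Nid1, Hspg2 (perlecan), Sparc, Serpinh1 and Dab2. They were found by gene name in the annotation of the array, which gave 14 probes of 9 genes among 41174 gene probes with 27962 distinct names. No probe carried the name Hspg2, and 1 probe described as mouse perlecan mRNA was read in its place, so that 15 probes of 10 genes were used. Each gene was read by its brightest probe, and these 10 probes were well above background on all 14 arrays.

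Of the embryos, 4 were cloned from cumulus cells by cell fusion and 4 from cumulus cells by nuclear injection, all female. The controls were 3 male and 3 female embryos from in vitro fertilization (IVF). The study describes its IVF controls as matched in sex and genotype, but here only the female embryos share the sex of the clones. All embryos were cultured in KSOM medium to the blastocyst stage. The donor genotype of these clones is not given in their labels, although the study as a whole cloned Xist knockout donor cells. The labels do not tie embryos to litters or donors, so p-values measure the spread between these arrays. Each group lay on a slide of its own, and clones and IVF embryos were scanned on different scanners with different software versions, so group, slide and scanner cannot be told apart in any comparison below. RNA of whole blastocysts was measured after linear amplification, and fewer cells of a type and less RNA per cell cannot be told apart.

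The primitive endoderm is the epithelium that forms on the surface of the inner cell mass facing the blastocyst cavity, next to the epiblast. Its cells, set apart by GATA and SOX factors, secrete a basement membrane in which laminin trimers form the first sheet, collagen IV forms a second network, and nidogen and perlecan link them. Parietal endoderm, a later derivative, lays down the thick Reichert's membrane and is a classical source of laminin, collagen IV and Sparc. Serpinh1 (HSP47) is the collagen-specific chaperone of the endoplasmic reticulum, and Dab2 is an endocytic adaptor used as an early marker of the lineage.

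In the cloned blastocysts the mean of each of the 10 genes, on its brightest probe, was below that of female IVF embryos, with both methods of nuclear transfer. Second probes of Dab2 in both clone groups and of Sparc in fusion clones were higher than in female embryos. Those of Col4a1 and Col4a2 were lower in both clone groups. The differences were largest for Lama1 and Hspg2 and smallest for Dab2, Nid1 and Lamc1. With all clones set against all IVF embryos, 8 of the 10 fell, where 13.1% of all probes tested did (22.2% changed in either direction). Against female IVF embryos alone, 1 fell in fusion clones, where 5.17% of probes did (9.49% either way), and 4 fell in injection clones, where 2.14% did (3.67% either way). The members were chosen with earlier results of these data known, so these shares give no independent test of the set. The values below are quantile-normalized log2 intensities, in which 1 unit is a doubling of signal and the floor is 4. A gene is said to have fallen where the Benjamini-Hochberg adjusted p of limma, over all probes tested, was below 0.05.

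**Figure D1:**
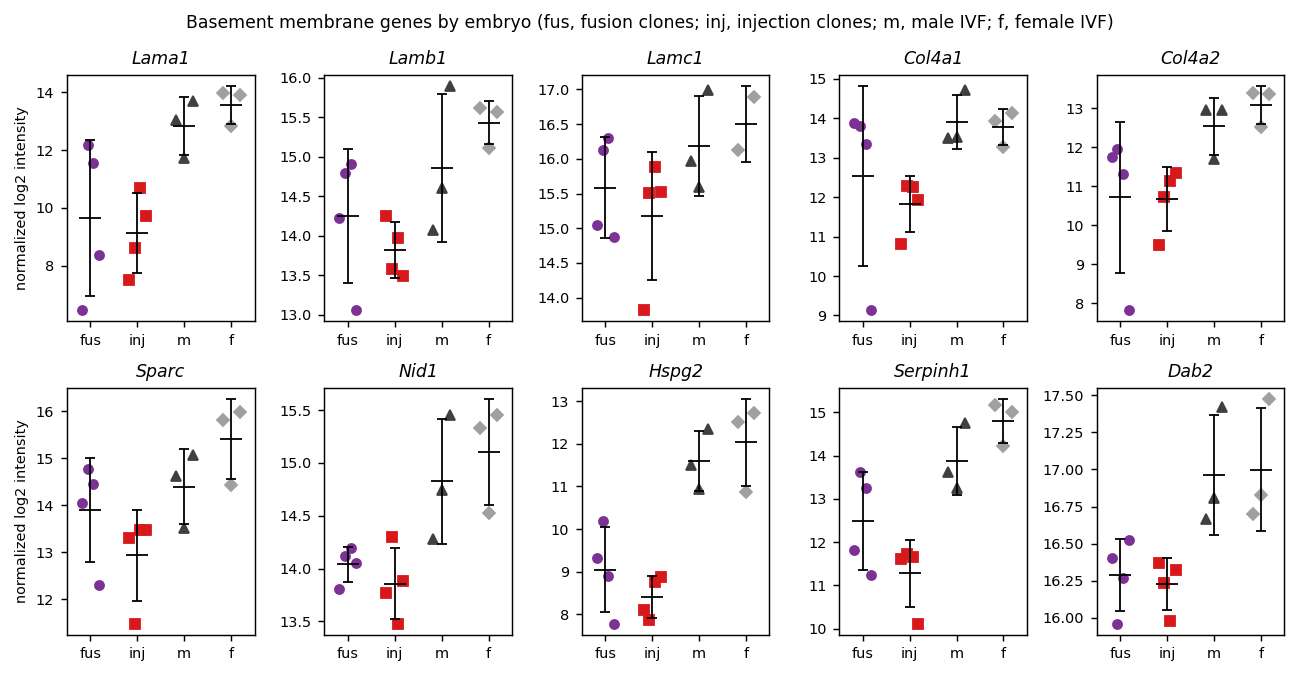
Normalized log2 intensity (y axis, a separate range in each panel) of the 10 genes in each embryo, with 1 point per array and the group mean ± SD as bars, for the 4 groups (4, 4, 3 and 3 embryos from left to right). For Hspg2 and Dab2 every clone sits below every IVF embryo, whereas for Col4a1 a single fusion clone at 9.13 lies far below the other 3.

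Perlecan, the heparan sulfate proteoglycan of basement membranes, separated clones from IVF embryos most clearly. Its log2 level was 9.32, 10.19, 8.91 and 7.79 in fusion clones 1 to 4 and 8.11, 7.86, 8.76 and 8.88 in injection clones 1 to 4. In IVF embryos it was 11.51, 10.94 and 12.35 in males and 12.51, 10.87 and 12.73 in females. Every clone lay below every IVF embryo, and the highest clone was fusion clone 2. The difference from female embryos was -2.98 ± 0.69 (SE; limma adjusted p = 0.0455; 4 against 3 arrays) in fusion clones, a fall of 7.90-fold. In injection clones it was -3.63 ± 0.52 (limma adjusted p = 0.0303), or 12.4-fold. All clones against all IVF embryos gave -3.09 ± 0.42 (limma adjusted p = 0.000765), and this stayed between -3.38 and -2.88, past the threshold, whichever of the 14 arrays was left out. Against female embryos alone, the call held in 1 of 7 such fits in fusion clones and in 2 of 7 in injection clones.

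Lama1, the chain that distinguishes laminin-111 from other laminins, varied most between clones. Its level was 6.47, 12.18, 11.55 and 8.38 in fusion clones and 7.51, 8.61, 10.68 and 9.74 in injection clones. Male IVF embryos had 13.03, 11.74 and 13.70, and female embryos 13.98, 12.82 and 13.90. Fusion clone 2 was above the lowest male embryo and fusion clone 3 just below it, while fusion clones 1 and 4 and injection clones 1 and 2 were more than 3 units lower. Lama1 fell by 4.43 ± 0.79 in injection clones against female embryos (limma adjusted p = 0.0444), a 21.6-fold change. This call was lost in each of the 7 fits that left out 1 array (limma adjusted p from 0.058 to 0.11). The fusion clones differed by -3.92 ± 1.43 (adjusted p = 0.14), with an SD of 2.69 among the 4 clones against 0.65 among the 3 female embryos. With all clones against all IVF embryos Lama1 fell by 3.81 ± 0.88 (limma adjusted p = 0.0102). A second Lama1 probe was at or near the floor on most arrays, with group means between 4 and 6.24, and gave no reading of this change.

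The other laminin-111 chains were nearer to the controls. Lamb1 was 14.23, 14.80, 14.91 and 13.06 in fusion clones and 14.25, 13.58, 13.97 and 13.49 in injection clones, against 15.62, 15.12 and 15.56 in female embryos. All 8 clones were below the female embryos, but male embryos 1 and 2, at 14.07 and 14.61, lay among the clones. Lamb1 fell by 1.61 ± 0.25 in injection clones (limma adjusted p = 0.0337), and the fusion clones differed by -1.18 ± 0.48 (adjusted p = 0.172). The call in injection clones held in 1 of the 7 fits that left out 1 array. For Lamc1, whose chain is shared by most laminins, the differences from female embryos of -0.92 ± 0.54 in fusion and -1.33 ± 0.66 in injection clones did not pass (adjusted p = 0.34 and 0.302). The spot of Lamc1 on the array of female embryo 1 was marked as non-uniform and set to missing, so these fits used 2 female arrays.

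Collagen IV is a heterotrimer of 2 Col4a1 chains and 1 Col4a2 chain, and the genes lie head to head. The promoter windows that RefSeq gives for the mouse build GRCm38.p6 run from 250 bases before to 50 after each start. They are shown because both genes reached their lowest level of the fusion clones in the same embryo, fusion clone 4. That embryo was the lowest of its group for 7 of the 10 genes, so this was not particular to collagen IV. The part of the promoters in it was not tested. Col4a1 lies on the minus strand at chr8:11312777-11313076 and Col4a2 on the plus strand at chr8:11312555-11312854. Their start sites are 21 bases apart and the windows share 78 bases. Capitals mark GC boxes (GGGCGG) and CCAAT boxes (CCAAT), read on either strand, and 1 GC box lies in the shared stretch.
Col4a1: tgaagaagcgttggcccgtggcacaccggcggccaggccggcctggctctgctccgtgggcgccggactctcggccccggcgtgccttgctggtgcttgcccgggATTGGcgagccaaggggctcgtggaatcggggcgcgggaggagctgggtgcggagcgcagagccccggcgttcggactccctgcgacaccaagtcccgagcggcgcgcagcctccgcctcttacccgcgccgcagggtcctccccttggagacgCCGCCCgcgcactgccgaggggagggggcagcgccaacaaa
Col4a2: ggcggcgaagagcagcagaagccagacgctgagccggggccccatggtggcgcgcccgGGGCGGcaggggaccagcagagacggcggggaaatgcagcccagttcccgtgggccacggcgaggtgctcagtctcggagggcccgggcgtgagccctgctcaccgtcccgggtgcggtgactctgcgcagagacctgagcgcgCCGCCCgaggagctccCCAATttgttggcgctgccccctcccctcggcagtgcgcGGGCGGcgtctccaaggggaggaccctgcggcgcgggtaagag
Windows with a GC box made up 35.7% of 32851 RefSeq mouse promoters of the same length, and windows with CCAAT 37.4%. The GATA motif was searched on both strands as AGATAA and its variant AGATAG, or as TGATAA and its variant TGATAG. At least 1 of these was found in 29.8% of promoters and none in either window, which says nothing of GATA factors elsewhere.

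Col4a1 was 13.88, 13.80, 13.36 and 9.13 in fusion clones and 10.80, 12.30, 12.26 and 11.94 in injection clones. Male embryos had 13.51, 13.52 and 14.71 and female embryos 13.93, 13.28 and 14.15. Fusion clones 1 to 3 thus stood within the range of the IVF embryos and only fusion clone 4 stood apart, whereas all 4 injection clones were below every IVF embryo. The difference from female embryos was -1.24 ± 1.21 in fusion clones (adjusted p = 0.539) and -0.11 without fusion clone 4. In injection clones it was -1.96 ± 0.43 (adjusted p = 0.0638).

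Col4a2 was lowest in the same embryo of each clone group, fusion clone 4 and injection clone 1. It was 11.74, 11.96, 11.32 and 7.83 in fusion clones, 9.49, 10.72, 11.13 and 11.33 in injection clones, 12.97, 11.70 and 12.96 in male and 13.39, 12.53 and 13.35 in female embryos. All clones were below the female embryos, and fusion clones 1 and 2 alone were above the lowest male embryo. The differences from female embryos were -2.37 ± 1.04 in fusion clones (adjusted p = 0.202) and -2.42 ± 0.50 in injection clones (adjusted p = 0.0562). In the comparison of all clones Col4a2 fell by 2.12 ± 0.62 (limma adjusted p = 0.0305), and Col4a1 differed by -1.67 ± 0.69 (adjusted p = 0.111).

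Serpinh1, the chaperone that collagen IV needs to fold, had the smallest adjusted p of the 10 in injection clones. Its level was 11.81, 13.63, 13.25 and 11.25 in fusion clones and 11.62, 11.73, 11.65 and 10.12 in injection clones. Male embryos had 13.61, 13.25 and 14.76 and female embryos 15.17, 14.23 and 15. Every clone was below every female embryo, and fusion clones 2 and 3 were level with the lower male embryos. Serpinh1 fell by 3.52 ± 0.48 in injection clones (limma adjusted p = 0.027), or 11.5-fold, and fusion clones differed by -2.32 ± 0.64 (adjusted p = 0.0721). Over all clones and IVF embryos it fell by 2.46 ± 0.44 (limma adjusted p = 0.00293). Its call in injection clones held in 2 of the 7 fits that left out 1 array.

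The promoter windows of the genes that fell furthest with a window in the table, Hspg2 (chr4:137468553-137468852, plus strand) and Serpinh1 (chr7:99353190-99353489, minus strand), are given for comparison with those of collagen IV. Capitals again mark GC and CCAAT boxes.
Hspg2: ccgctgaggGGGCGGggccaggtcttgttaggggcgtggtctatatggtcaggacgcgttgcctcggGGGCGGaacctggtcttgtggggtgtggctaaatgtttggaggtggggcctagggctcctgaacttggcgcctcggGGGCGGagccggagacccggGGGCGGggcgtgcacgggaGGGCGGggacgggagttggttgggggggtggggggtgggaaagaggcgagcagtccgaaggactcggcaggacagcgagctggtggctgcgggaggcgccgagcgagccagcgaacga
Serpinh1: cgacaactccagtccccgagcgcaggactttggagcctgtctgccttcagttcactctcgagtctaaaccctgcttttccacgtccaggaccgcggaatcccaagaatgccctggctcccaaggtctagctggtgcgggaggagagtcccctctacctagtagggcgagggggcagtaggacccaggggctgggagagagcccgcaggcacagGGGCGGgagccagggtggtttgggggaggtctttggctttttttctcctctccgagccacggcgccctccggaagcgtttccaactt
Hspg2 had 5 GC boxes and Serpinh1 had 1, and neither had a CCAAT box. Of the other members, Lamb1 had 2 GC boxes and Nid1 had 1, each with 1 CCAAT box, and Sparc and both Dab2 windows had none of either. The GATA letters occurred in 1 window only, the more upstream start of Dab2, with 2 matches. No window was listed for Lama1 or Lamc1.

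Sparc, a secreted glycoprotein that binds collagen IV, was 14.04, 14.78, 14.46 and 12.31 in fusion clones and 13.31, 11.49, 13.47 and 13.47 in injection clones. It was 14.62, 13.51 and 15.06 in male and 15.81, 14.42 and 15.98 in female embryos. Fusion clones overlapped both IVF groups, and injection clones lay below all IVF embryos. Differences from female embryos were -1.51 ± 0.69 in fusion clones (adjusted p = 0.219) and -2.47 ± 0.64 in injection clones (adjusted p = 0.0879). With all clones against all IVF embryos Sparc fell by 1.48 ± 0.49 (limma adjusted p = 0.0496), close to the threshold, and this call held in 3 of the 14 fits that left out 1 array.

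Nid1, which bridges laminin and collagen IV, had little spread among fusion clones, at 13.81, 14.12, 14.19 and 14.05. Injection clones had 13.77, 14.30, 13.48 and 13.88, male embryos 14.28, 14.75 and 15.46, and female embryos 15.33, 14.53 and 15.46. All clones were below the female embryos. The differences of -1.06 ± 0.27 and -1.25 ± 0.30 in fusion and injection clones did not pass against female embryos (adjusted p = 0.0555 and 0.0756). Over all clones and IVF embryos Nid1 fell by 1.02 ± 0.21 (limma adjusted p = 0.00633).

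Dab2 differed least in size. It was 16.40, 15.96, 16.27 and 16.53 in fusion clones and 16.37, 16.24, 15.98 and 16.32 in injection clones, against 16.66, 16.81 and 17.42 in male and 16.70, 16.83 and 17.48 in female embryos. No clone reached an IVF embryo on this probe. In all clones against all IVF embryos Dab2 fell by 0.72 ± 0.17 (limma adjusted p = 0.0101), but its second probe differed by 0.46 ± 0.24 in the opposite direction (adjusted p = 0.204).

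**Figure D2:**
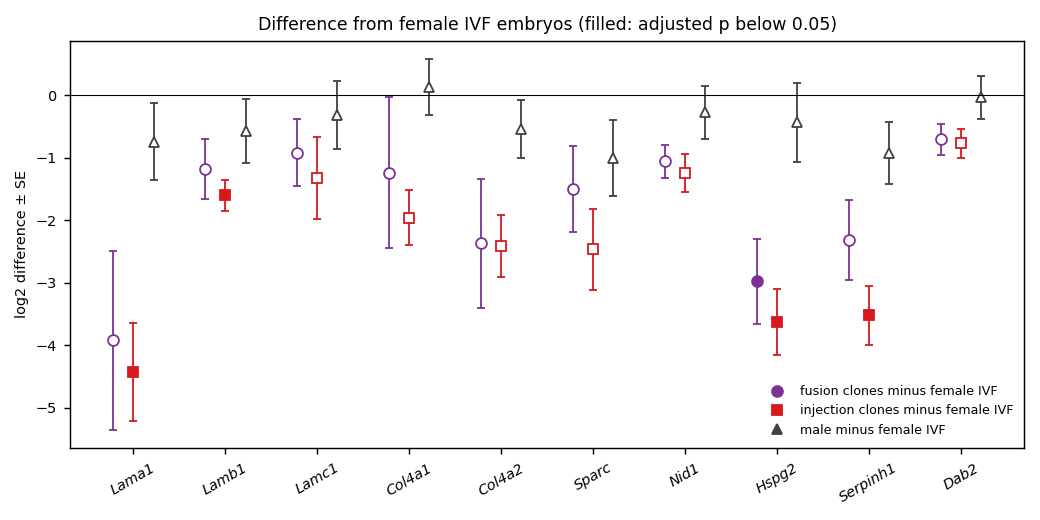
Log2 difference from the mean of female IVF embryos (y axis, ± SE of the limma fit) for each of the 10 genes (x axis), in fusion clones, injection clones and male IVF embryos. Filled symbols mark an adjusted p below 0.05, and the clone points lie below 0 for all 10 genes with Lama1 lowest, at -3.92 and -4.43.

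Counted over the set, 1 of 10 genes fell in fusion clones against female embryos (Hspg2), where 9.49% of 32458 probes tested passed in either direction and 5.17% fell. In injection clones 4 of 10 fell (Lama1, Lamb1, Hspg2 and Serpinh1), where 3.67% of 32840 probes passed and 2.14% fell. The median difference of the 10 genes was -1.37 in fusion and -2.19 in injection clones, beside -0.12 and -0.075 over all probes tested. By the threshold of the study's methods, an unadjusted p below 0.05 with a 2-fold difference, 5 genes were lower in fusion clones and 8 in injection clones, beside 8.59% and 7.08% of all probes. The ranges of clones and female embryos did not overlap for 7 genes in fusion clones and for all 10 in injection clones, where 15.4% and 12.5% of probes did so in that direction. Both comparisons share the 3 female embryos, and with all clones against all IVF embryos they share the clones as well. Because the members were chosen with earlier results of these data known, the shares of all probes do not test the set.

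These counts rested on few arrays. In fusion clones the single call was lost without fusion clone 1, 2, 3 or 4 or without female embryo 1 or 3 (0 genes each), and 2 genes passed without female embryo 2. In injection clones 0 genes passed without injection clone 1, 2 or 3 or without female embryo 1 or 3, 2 passed without injection clone 4, and 3 without female embryo 2. All 10 differences kept a negative sign in every one of these fits.

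With all 8 clones set against all 6 IVF embryos, 8 of 10 genes fell, in a comparison where 22.2% of 35010 probes passed and 13.1% fell. Lamc1, at -0.97 ± 0.43 (adjusted p = 0.137), and Col4a1 were the exceptions. The count was 5 without injection clone 2, male embryo 3, female embryo 1 or female embryo 3, and 6 to 8 without any other single array. Dab2, Hspg2, Lama1, Nid1 and Serpinh1 passed in each of these 14 fits, Col4a2 in 8 and Lamb1 in 6. The groups did not overlap for 2 genes, Hspg2 and Dab2, beside 4.02% of probes in that direction. The sexes are unbalanced here, since all clones were female. Here too the members had been chosen with earlier results known, so the shares of all probes do not test the set.

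Between the methods of nuclear transfer, none of the 10 genes passed, and 0% of 32303 probes did. All 10 means were higher in fusion clones, with a median difference of 0.47 beside -0.015 over all probes. The largest difference was that of Serpinh1, at 1.21 ± 0.64 (limma adjusted p = 0.814), and no gene of the set was below an unadjusted p of 0.05 on its brightest probe. That 4 genes fell in injection clones and 1 in fusion clones was therefore not shown to be a difference between the methods. On the unadjusted threshold of the methods 410 probes were higher and 359 lower in fusion clones. The second Sparc probe was among them, at 1.73 ± 0.65 (adjusted p = 0.773).

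Between male and female IVF embryos 0 of 10 genes passed, where 0.0593% of 32046 probes did, and none was below an unadjusted p of 0.05 by limma. Male embryos were lower for 9 of the 10, with a median difference of -0.49 beside -0.032 over all probes. Serpinh1, at -0.93 ± 0.50 (adjusted p = 0.666), and Sparc, at -1.01 ± 0.60 (adjusted p = 0.694), were farthest from 0. Setting the clones against the female group alone thus used the IVF group with the higher mean for 9 of the 10 genes. The order of group means was female, male, fusion clone and injection clone for all genes but Col4a1, where male embryos came first, and neither male from female embryos nor fusion from injection clones differed by this test.

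Col4a1, Col4a2, Sparc and Dab2 each had a second, dimmer probe nearer to the 5′ end of the transcript, and these probes gave smaller falls or none. For Sparc the second probe differed from female embryos by 0.33 ± 0.65 in fusion clones (adjusted p = 0.757) and by -1.41 ± 0.49 in injection clones (adjusted p = 0.158). For Dab2 it differed by 0.44 ± 0.28 and 0.43 ± 0.32. The second Col4a2 probe repeated the first, at -2.29 ± 0.64 and -2.27 ± 0.48, and that of Col4a1 gave -0.92 ± 0.81 and -1.33 ± 0.39.

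Relative to the 3′ probe of the same gene, the 5′ probe was higher in clones than in IVF embryos by 0.70 for Col4a1, 0.36 for Col4a2, 0.78 for Sparc and 1.18 for Dab2. Over all 3660 genes with probes at different positions the median of this shift was 0.24, and 2341 genes were higher in clones. By array the median 5′ minus 3′ difference ran from -1.35 to -1.25 in fusion clones, from -1.49 to -1.32 in injection clones, from -1.80 to -1.42 in male and from -1.86 to -1.60 in female embryos. It therefore moved with the clone and IVF groups, and its part in the lower values of the clones was not tested. The other 6 genes had no such second reading, apart from the Lama1 probe at the floor. With the 5′ probes in place of the brightest, a choice made after the values were seen, 6 of 10 genes fell in all clones against all IVF embryos.

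**Figure D3:**
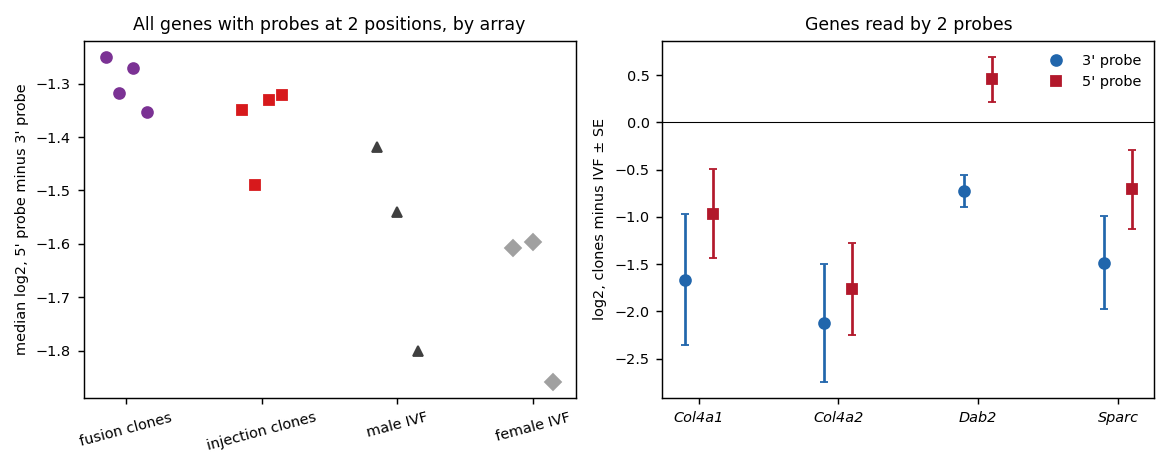
Left, the median log2 difference between the 5′ and the 3′ probe of a gene (y axis) on each array, by group. Right, the log2 difference of all clones from all IVF embryos (y axis, ± SE) on the 3′ and the 5′ probe of 4 genes, where the Dab2 probes lie on opposite sides of 0, at -0.72 and 0.46.

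Whether the genes fell together was asked embryo by embryo. Of the 10 genes, fusion clones 1 to 4 had 9, 7, 7 and 10 below every female embryo in which the gene was measured, and each injection clone had all 10. Male embryos 1 to 3 had 5, 6 and 0. Over 17478 probes well above background on all arrays, the share below every female embryo was between 37.5% and 39.9% in fusion clones. It was between 29.2% and 40.4% in injection clones and between 28.6% and 31.5% in male embryos. The genes of a clone that were not below all female embryos were Col4a1 in fusion clones 1, 2 and 3, and Lamc1 and Sparc in fusion clones 2 and 3.

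Within the fusion clones, the embryos differed as wholes. Fusion clone 4 was the lowest of its group for 7 of the 10 genes and lay on average 1.33 below the group means, while fusion clones 2 and 3 lay 0.90 and 0.60 above them. Injection clones 1 to 4 lay at -0.43, -0.10, 0.39 and 0.14, with no embryo lowest for more than 4 genes. Among IVF embryos, female embryo 2 was lowest in its group for 9 genes and male embryo 2 for 6, and male embryo 3 was highest in its group for 9. The median SD of the 10 genes within a group was 1.05 in fusion clones, 0.74 in injection clones, 0.72 in male and 0.50 in female embryos, beside 0.32, 0.37, 0.45 and 0.40 over 17478 probes well above background on all arrays.

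**Figure D4:**
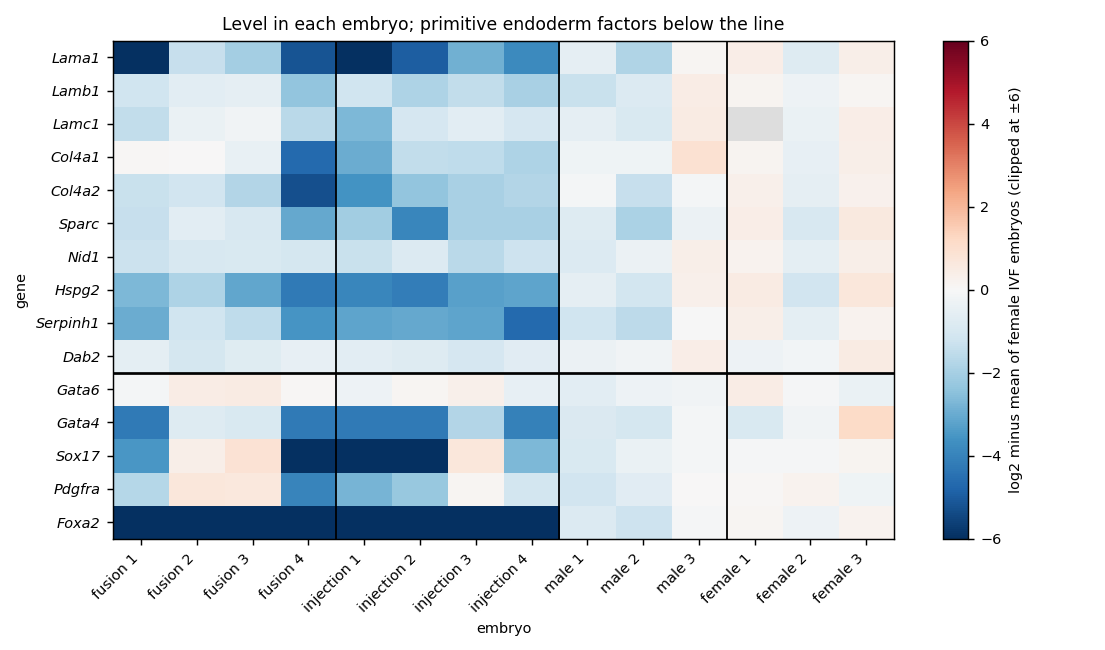
Log2 level of each gene (rows) in each embryo (columns) minus the mean of the female IVF embryos, clipped at 6 in either direction, with grey for the missing Lamc1 value. Fusion clones 2 and 3 are paler than fusion clones 1 and 4 across most of the 10 genes, and below the line Foxa2 is dark in all 8 clones while Gata6 is pale in all embryos.

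After each group mean was taken off, 40 of the 45 pairs of genes were positively correlated over the 14 embryos, with a mean Pearson r of 0.44, beside 0.014 over all pairs of the 17478 probes. Quantile normalization gives every array the same distribution, which keeps that background near 0, so it does not show how far other sets of related genes vary together. By exact permutation of embryos within groups (two-sided, adjusted over 45 pairs), 4 pairs passed. They were Sparc with Hspg2 (r = 0.87, rho = 0.88, exact p = 0.000675, adjusted p = 0.0304), Col4a2 with Hspg2 (r = 0.78, rho = 0.69, exact p = 0.00154, adjusted p = 0.0347), Lama1 with Lamc1 (r = 0.81, rho = 0.91, exact p = 0.00333, adjusted p = 0.0429) and Lamb1 with Serpinh1 (r = 0.81, rho = 0.83, exact p = 0.00381, adjusted p = 0.0429). By Spearman's rho, 2 of these passed, Lama1 with Lamc1 and Sparc with Hspg2 (adjusted p = 0.0326 for each, exact permutation). This test took the 6 IVF embryos as independent, although same-numbered male and female embryos deviated together over all probes. With same-numbered IVF embryos moved together in the permutation, a test added after the values were seen, 0 of 45 pairs passed by r or by rho (smallest adjusted p for r = 0.0694, exact permutation, with 10 pairs below 0.05 before adjustment). Without the 2 embryos farthest from the median of the first gene, their r values were 0.87, 0.77, 0.90 and 0.72. The genes of a pair are read on the same array, and so share its RNA, amplification and hybridization.

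The collagen IV pair had the highest r, 0.95, but a rho of 0.76, and did not pass (exact p = 0.00598, adjusted p = 0.0538). Its r without the 2 farthest embryos was 0.79. Dab2 was the exception to the positive pairs, with a mean r of 0.006 with the other genes and 4 of 9 pairs positive. The remaining genes had mean r values from 0.34 for Nid1 to 0.57 for Hspg2.

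The co-variation was recomputed within each origin, since clones and IVF embryos also differ in scanner. In the 8 clones 33 of 45 pairs were positive with a mean r of 0.24 (0.017 over all probe pairs), and 0 passed after adjustment, although 7 had an exact p below 0.05 before it. Dab2 had a negative r there with 8 of the other 9 genes, from -0.77 with Lama1 to -0.54 with Sparc, and an r of 0.11 with Nid1, none of which passed. Nid1 in turn had a negative r with Lamb1, Col4a2, Sparc and Hspg2, at -0.07, -0.05, -0.45 and -0.27. In the 6 IVF embryos all 45 pairs were positive with a mean r of 0.78 (0.011 over all probe pairs), Dab2 included. With 6 embryos in 2 groups the exact test could not go below 0.0278, and no pair passed after adjustment. This too took the 6 embryos as independent, and with same-numbered embryos moved together the exact test could not go below 0.167. Male embryo 3 and female embryo 3, the embryos with the most genes at the top of their groups, also had the most negative 5′ minus 3′ differences, at -1.80 and -1.86, whose part in these correlations was not tested.

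**Figure D5:**
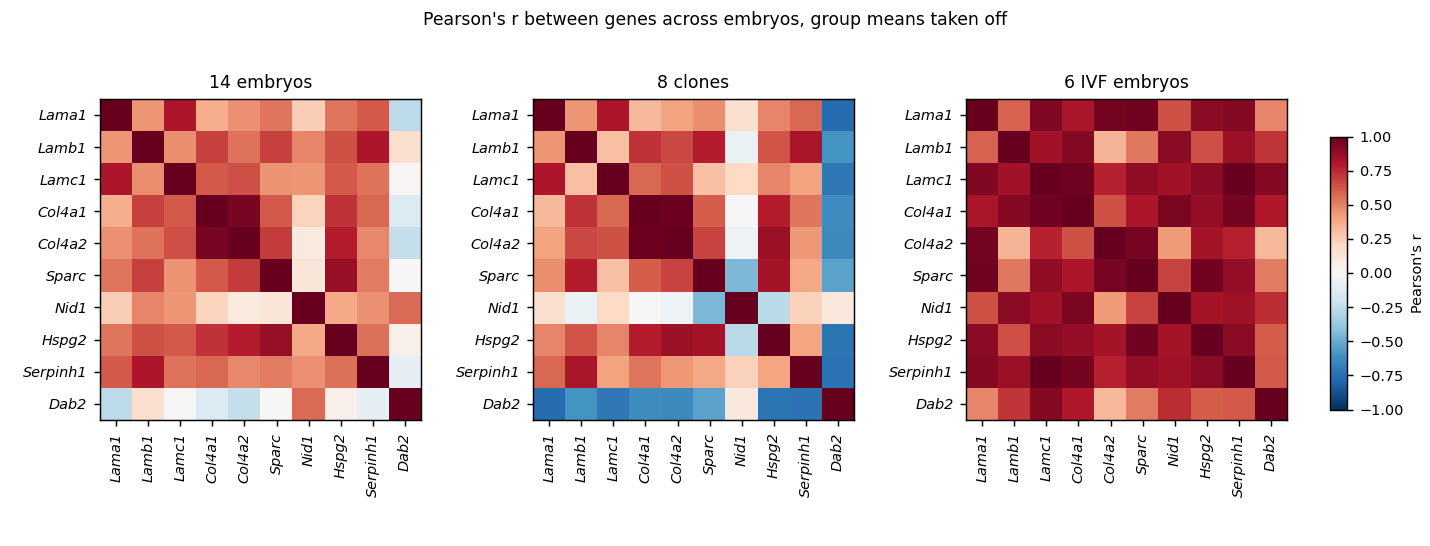
Pearson's r (colour, from -1 to 1) between each pair of the 10 genes after group means were taken off, over 14 embryos (left), the 8 clones (middle) and the 6 IVF embryos (right). Mean r over the 45 pairs is 0.44, 0.24 and 0.78, and the Dab2 row is blue in the clones for all genes but Nid1 and red in the IVF embryos.

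The lineage factors of the primitive endoderm were set beside the members, with 11 marker genes in the list. Gata6, an early factor of the lineage, was between 15.53 and 16.70 in all 14 embryos. Sox17, a factor of its later differentiation, was 10.64, 14.47, 15 and 4 in fusion clones and 7.06, 4, 14.81 and 11.43 in injection clones, and between 13.20 and 14.28 in IVF embryos. Fusion clones 2 and 3 and injection clone 3 were thus above all IVF embryos in Sox17, while fusion clone 4 and injection clone 2 were at the floor. The same 3 clones had the highest Pdgfra (13.90 to 14.44, against 9.79 to 12.66 in the other clones) and the highest Gata4 (6.47 to 7.44, against 4 to 4.19).

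Foxa2, a forkhead factor of endoderm, was at the floor of 4 in all 8 clones and between 9.93 and 11.40 in the 6 IVF embryos. It was not well above background in any fusion clone, and was at least 145.6-fold lower there than in female embryos (limma adjusted p = 8.29e-05). In injection clones it was marked as well above background on 1 array and fell to the floor by the same test (limma adjusted p = 8.95e-05). With every clone value set to the floor, the clones add no spread, so these p-values for Foxa2 do not measure variation between clones. Sox7, -6.39 ± 1.01, and Cubn, the receptor cubilin, -4.28 ± 0.93, also fell in fusion clones (limma adjusted p = 0.018 and 0.0399). In all, 3 of 11 markers fell in fusion clones and 1 in injection clones, with median differences of -2.39 and -1.51.

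Across the 8 clones, with group means taken off, the members were set against Gata4, Gata6, Pdgfra and Sox17, a choice made after these values were seen. For Pdgfra, Sox17 and Gata4, 8 of 10 members each had a positive r, with medians of 0.78, 0.67 and 0.60, and for Gata6 it was 9 of 10 with a median of 0.24. None of the 40 relations passed after adjustment (exact permutation, smallest adjusted p = 0.169 for r and 0.139 for rho). The strongest were Lama1 with Gata4 (r = 0.91, rho = 0.87) and Sparc with Sox17 (r = 0.89, rho = 0.88), and Dab2 was negative with Gata4 (r = -0.87, rho = -0.88). Without the 2 farthest clones these r values were 0.89, 0.63 and -0.76. Gata4 was at or near the floor of 4 in all clones but fusion clones 2 and 3 and injection clone 3. Sox17 was at the floor in fusion clone 4 and injection clone 2. The relations with these factors therefore rest in part on values at the floor.

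The mean log2 level of the primitive endoderm markers ran from 8.38 to 10.30 in fusion clones, from 8.87 to 10.72 in injection clones, from 10.42 to 12.53 in male and from 11.61 to 12.56 in female embryos, with 7 of 11 markers well above background on all arrays. Markers of parietal endoderm moved the same way, from 6.84 to 8.66 and from 7.62 to 8.17 in the clone groups against 9.27 to 9.90 and 9.52 to 10.44 in male and female embryos. Of its 7 genes, 3 were well above background on all arrays, and 5 were lower in fusion clones and 6 in injection clones than in female embryos. Krt19 and Fst were higher in fusion clones, by 0.15 ± 0.45 and 0.42 ± 0.59, and did not pass. Vim (vimentin) fell in fusion and injection clones, by 5.50 ± 1.20 and 4.92 ± 0.50 (limma adjusted p = 0.0404 and 0.0146). Pth1r, a hormone receptor of that tissue, fell by 5.09 ± 0.60 in injection clones (limma adjusted p = 0.0205). These falls stand beside those of the basement membrane genes, and their part in them was not tested.

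Epiblast markers ranged from 11.68 to 12.95 in fusion clones, from 12.35 to 13.04 in injection clones and from 12.33 to 12.87 in all IVF embryos. There the clones overlapped the IVF embryos, and all 8 genes were well above background on all arrays. The 10 trophectoderm markers with a value on every array, which leave out Hand1, ranged from 14.83 to 15.30 in clones and from 15.36 to 15.70 in IVF embryos, so that every clone was below every IVF embryo. This rests on leaving out Hand1, a choice made after the values were seen, because fusion clone 1 had no value for it. The separation rests on Elf5 as well, another of these markers, which read 8.10 to 11.39 in clones and 13.03 to 14.60 in IVF embryos. The median difference of all 11 markers from female embryos was 0.01 in fusion and 0.022 in injection clones, with 5 lower in each. Hand1 rose by 3.69 ± 1.16 in all clones against all IVF embryos (limma adjusted p = 0.0446), and with it included the injection clones ranged from 13.99 to 14.74 and overlapped the IVF embryos, at 14.41 to 14.65. The part of the trophectoderm values in the lower basement membrane genes was not tested. Visceral endoderm markers had means between 5.34 and 5.90 throughout, but only 3 of 8 were well above background on all arrays. Of these, Trf (transferrin) ran from 5.97 to 7.04 in clones and from 6.80 to 8.01 in IVF embryos, and fell by 0.83 ± 0.21 in all clones against all IVF embryos (limma adjusted p = 0.0164). Apoa1, an apolipoprotein, ran from 7.25 to 10.65 in clones and from 7.04 to 8.48 in IVF embryos, a difference of 1.52 ± 0.52 that did not pass (limma adjusted p = 0.0561). Cumulus cell markers, the donor type, had means between 4.62 and 5.12 in clones and between 4.88 and 6.06 in IVF embryos, with 1 of 12 genes well above background on all arrays. That gene, the hormone receptor Amhr2, was between 9.82 and 11.31 in clones and between 7.97 and 9.59 in IVF embryos, and rose by 1.63 ± 0.34 in all clones against all IVF embryos (limma adjusted p = 0.00564). It was the only cumulus marker called higher in that comparison, and 2 of the 12 were called lower. Of the 12 differences 9 were negative, with a median of -0.564. Elf5, a trophectoderm factor, fell by 2.96 ± 0.44 in fusion clones and Id2 by 1.12 ± 0.19 in injection clones (limma adjusted p = 0.016 and 0.0396), and Zfp42, of the epiblast list, rose by 0.93 ± 0.16 in injection clones (limma adjusted p = 0.0437).

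The rest of the basement membrane was counted as lists. Of 8 other laminin chains, 0 changed in fusion clones (limma, and 0 by the unadjusted 2-fold threshold) and 1, Lama3, rose in injection clones, by 1.49 ± 0.28 (limma adjusted p = 0.0474). Lama5, the other main alpha chain of early embryos, was between 14.73 and 15.54 in clones and between 14.49 and 15.07 in the 5 IVF embryos with a value. Of 13 other components, which include Nid2, agrin and fibronectin, 0 changed in fusion clones and 0 of the 12 tested changed in injection clones (limma, with 1 lower in fusion, and 1 lower and 1 higher in injection, by the unadjusted 2-fold threshold). In all clones against all IVF embryos Col4a4 and Col4a6 fell by 1.27 ± 0.20 and 0.76 ± 0.19 and Col18a1 rose by 1.07 ± 0.34 (limma adjusted p = 0.00134, 0.0146 and 0.0426). Median differences were -0.52 and -0.40 for the laminin chains and -0.55 and -0.65 for the other components, in fusion and injection clones.

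Receptors and linkers that hold cells to the membrane were counted next. Of 14 genes, 2 rose in fusion clones, Lims1 by 3.44 ± 0.43 and Dag1 (dystroglycan, a laminin receptor) by 1.5 ± 0.29 (limma adjusted p = 0.00994 and 0.0306), and 0 changed in injection clones (2 higher by the unadjusted threshold). Lims1 was between 12.54 and 12.63 in fusion clones but 10.24, 12.68 and 11.14 in male embryos, so that male embryo 2 was above every fusion clone. Dag1 was between 14.17 and 14.29 in fusion clones and 12.84, 13.00 and 13.66 in male embryos. Of 16 genes for collagen folding and export, 2 fell in fusion clones, namely Hsp90b1, a chaperone of the endoplasmic reticulum, by 0.99 ± 0.15, and Sec24d, a coat protein of export vesicles, by 2.12 ± 0.41 (limma adjusted p = 0.0171 and 0.029). In injection clones Hsp90b1 alone fell, by 1.0 ± 0.14 (limma adjusted p = 0.0305). The median differences of these lists were -0.13 and -0.53 in fusion clones and -0.16 and -0.36 in injection clones.

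Among 8 endocytic partners of Dab2, Cubn was the 1 gene that fell in fusion clones, and 0 changed in injection clones (2 lower by the unadjusted threshold). Cubn, Lrp2 and Amn also belong to the primitive endoderm list, so the fall of Cubn is the one already counted there. Lrp2, the receptor megalin, was between 16.90 and 17.80 in clones and between 17.10 and 18 in IVF embryos. Of 15 remodelling genes, 14 were tested in fusion clones and 13 in injection clones, with median differences of -0.89 and -0.85. By the unadjusted 2-fold threshold 5 were lower and 1 higher in fusion clones, and 3 lower and 1 higher in injection clones, and after adjustment 1 passed in each, the matrix protease Mmp9, which rose. It was between 6.96 and 10.48 in the 8 clones and not well above background in any female embryo, so that it was at least 16.7-fold higher in fusion and at least 41.8-fold higher in injection clones (limma adjusted p = 0.0101 and 0.0129), and it read 6.62, 4 and 7.15 in male embryos.

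With all clones set against all IVF embryos, where 13.1% of probes fell, calls were made in each of these lists. The other laminin chains had 1 higher and 1 lower of 8, the other components 1 and 2 of 13, and receptors and linkers 2 and 2 of 14. Genes of collagen folding and export had 2 higher and 4 lower of 16, endocytic partners 1 and 2 of 8, and remodelling genes 1 and 2 of 14 tested. Of the marker lists, primitive endoderm had 5 of 11 lower and parietal endoderm 3 of 7 lower. Cubn, Lrp2 and Amn stood in both the endocytic and the primitive endoderm list, and Plat in both the remodelling and the parietal endoderm list. The counts of these lists are therefore not separate.

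The genes outside the set most like it were sought among probes well above background on all arrays, by Pearson's r with the mean of the 10 genes over the 14 embryos after group means were taken off. They were Ythdf1 (0.93), Dusp4 (0.91), Ramp2 (0.90), Sms (0.90) and Cdr2l (0.90). They are the highest of 17478 probes and carry no test.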

How the data were processed

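Amplified, Cy3-labelled RNA of 14 single blastocysts was hybridized to Agilent mouse genome arrays in 1 color. The authors deposited Feature Extraction output for each array, with processed intensity per spot on a linear scale, background-subtracted and not normalized between arrays. Per the file headers, version 10.5.1.1 was used for clone arrays and version 9.5.3.1 for IVF arrays. A deposited table of log2 values, whose per-array medians lay between -0.22 and 0.16, so that arrays or probes had been centred, served as an alternative. How it was made is not given in the sources used here.

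Groups and replicate numbers came from the sample labels. The 1639 control spots were left out, and 101 to 338 outlier spots per array were set to missing. Processed intensities of 43379 spots were quantile-normalized over the 14 arrays, floored at 16, transformed to log2 and averaged per probe. A probe entered a comparison if any array in it was flagged well above background. The test was limma 3.58.1 in R 4.3.3 (lmFit, eBayes) with Benjamini-Hochberg adjustment over all probes tested and a threshold of 0.05. Fits were tested on simulated data with known changes. Between 57.5% and 65.2% of spots were well above background per array, and the number of arrays limits the precision.

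All 10 members were named in every comparison, at most 4 called genes per pathway list, and the 5 genes most like the set. The members and lists were chosen with earlier results of these data known. Gene symbols were updated through RefSeq, which matched 79.5% of probes. Replicate numbers of male and female embryos deviated together (correlations of same-numbered arrays 0.15, 0.17 and 0.17), whereas those of the clones with female embryos did not all do so. Between fusion and injection clones 1 to 4 the correlations were -0.005, -0.075, 0.174 and -0.046. Correlations used exact permutation within groups (Python 3.11.15). Alternatives were the normalization, background correction, floor, filter, variance trend, samples in the fit, probe choice, replicate block and each array left out.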

Additional observations from a re-analysis of the deposited data

Results flagged for a closer look

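In groups of 4 clones the lowest or highest embryo stood apart from the other 3 (a gap to the nearest that exceeded Dixon's critical share of the range) in 4 of 20 cases, where chance gives about 1. The cases are not independent, because all genes of a group are read on the same 4 arrays. The count is therefore no test of an excess. Groups of 3 IVF embryos were not tested. Fusion clone 4 was far below the other fusion clones in Col4a1, at 9.132 against 13.36 to 13.88, and in Col4a2, at 7.825 against 11.32 to 11.96. Injection clone 2 was low in Sparc, at 11.487 against 13.31 to 13.47. Injection clone 4 was low in Serpinh1, at 10.118 against 11.62 to 11.73. The embryos concerned differ between the clone groups and genes, except that the collagen IV chains were low in the same embryo.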

How the results depend on the processing

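The count of basement membrane genes that fell in fusion clones against female embryos, 1, depended on the processing. It was 2 with a shift to the 75th percentile, with normexp background correction or with a variance trend, 3 with probes well above background on every array of a group or with all 4 groups in one fit, and 0 with the deposited log2 values, a floor of 1 or 32 or no filter. Leaving out 1 array gave 0 to 2. In injection clones the count of 4 became 2 with a floor of 1 and 0 to 3 with 1 array left out, and was between 3 and 6 in the other alternatives without the replicate block. In all clones against all IVF embryos the count of 8 stayed between 6 and 8 in the alternatives without the replicate block, apart from 5 to 8 with 1 array left out. Fusion against injection clones and male against female embryos gave 0 in every alternative. The number of positive pairs, 40 of 45, ran from 36 to 43 with 1 array left out. The 4 pairs that passed became 0 with same-numbered IVF embryos moved together in the permutation, a choice made after the values were seen. The more 5′ probe turned the difference of Dab2 in all clones against all IVF embryos from -0.72 to 0.456, a setting chosen after the values were seen. The cause of these changes was not tested.

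With the replicate number as a block, the counts were 0 in fusion clones, 0 in injection clones and 5 in all clones against all IVF embryos. The clones share only a number with the IVF embryos. For male against female embryos, where the numbers deviated together, the block left the count at 0. Among called differences of single genes, that of Dab2 was the 1 that changed sign.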
